A study of Mus musculus with 7 samples.

Results

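The methionine cycle and one-carbon enzymes were followed here as 9 genes of mouse liver: Mat1a, Mat2a, Gnmt, Bhmt, Ahcy, Cbs, Cth, Shmt1 and Pemt. They were chosen by name, as array probes whose gene symbol in the platform annotation is exactly one of these. Of the 9, 8 were measured, by 10 probes among 16462 named genes, and the expression of Mat2a is not analysed here. The samples are livers of 3 mice carrying a Zfp90 transgene (1 female, 2 males) and of 4 wild-type littermates (1 female, 3 males). All were on 2-colour arrays against 1 pool, which combined the liver RNA of 4 wild-type males and females. The sample titles do not say whether these are the 4 wild-type animals on the arrays. If they are, the wild-type ratios are not independent of the pool. The promoter and structure of the transgene, the number of founder lines, the strain and the age of the animals are not given in the sources used here. All values are log2 ratios of an animal to the pool, converted from deposited values whose log base of 10 was inferred from their limits of -2 and 2. On this scale 0 means the level of the pool, and levels of different genes cannot be compared with each other. In whole tissue, fewer cells of a type and less RNA per cell cannot be told apart, and a ratio to another liver cannot show whether a liver marker is present or absent.

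The methionine cycle makes and recycles S-adenosylmethionine, the methyl donor of most methylation reactions, and the liver is a main site of methionine turnover. Methionine adenosyltransferase (Mat1a in adult hepatocytes, Mat2a in other and in dividing cells) makes the donor, methyltransferases such as Gnmt and Pemt use it, and Ahcy cleaves the S-adenosylhomocysteine that is left to homocysteine. Homocysteine is then either remethylated to methionine, in liver partly by Bhmt with betaine as the methyl source, or committed by Cbs and Cth to the synthesis of cysteine, while Shmt1 moves a carbon between serine and the folate pool.

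The arrays were first set against their labels. Zfp90 read 0.34 in the transgenic female and 0.58 and 0.45 in the transgenic males, against 0.37 on the array labelled wild-type female, with -0.15, -0.29 and -0.11 in the wild-type males, so it separated the genotypes in the males and not in the females. Genotype differences are therefore given over all 7 animals and again in the 5 males alone. Positive ratios were read as animal over pool because the Y-linked gene Kdm5d lay at -2.54 and -3.22 in the females and between 0.14 and 0.66 in the males. Of all pairs of arrays, 3 correlated below -0.3 over all probes, the lowest at -0.497 (wild-type male 4 and the transgenic female). Turning every sign would turn each difference and leave each p as it is. The labels call the controls littermates and say no more on breeding, so litter could not enter the models. The limma p-values set each difference against the spread within groups of these animals, moderated over all features. For the interaction, with 1 female per genotype, that spread comes from the males.

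None of the 8 measured enzymes passed the test for transgenic against wild-type liver. In limma, with sex in the model and p-values adjusted over 22212 features, 0 of 8 were called at an adjusted p under 0.05 (lowest 0.718), against 0% of all features, and 1 of 8 had an unadjusted p under 0.05, Mat1a, on the higher side, where 3.81% of all features lay. The differences were positive for 3 genes and negative for 5, with a median of -0.02 beside -0.01 over all features, and ran from -0.18 to 0.29. In no member did the transgenic animals lie wholly above or wholly below the animals labelled wild type, a pattern found above in 3.18% and below in 2.84% of all features. An exact two-sided permutation test of the group means, run for 8 genes over the 35 splits of the animals, gave p from 0.229 (Mat1a) to 0.971 (Cth), where 0.0571 is the smallest this design allows.

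**Figure D1:**
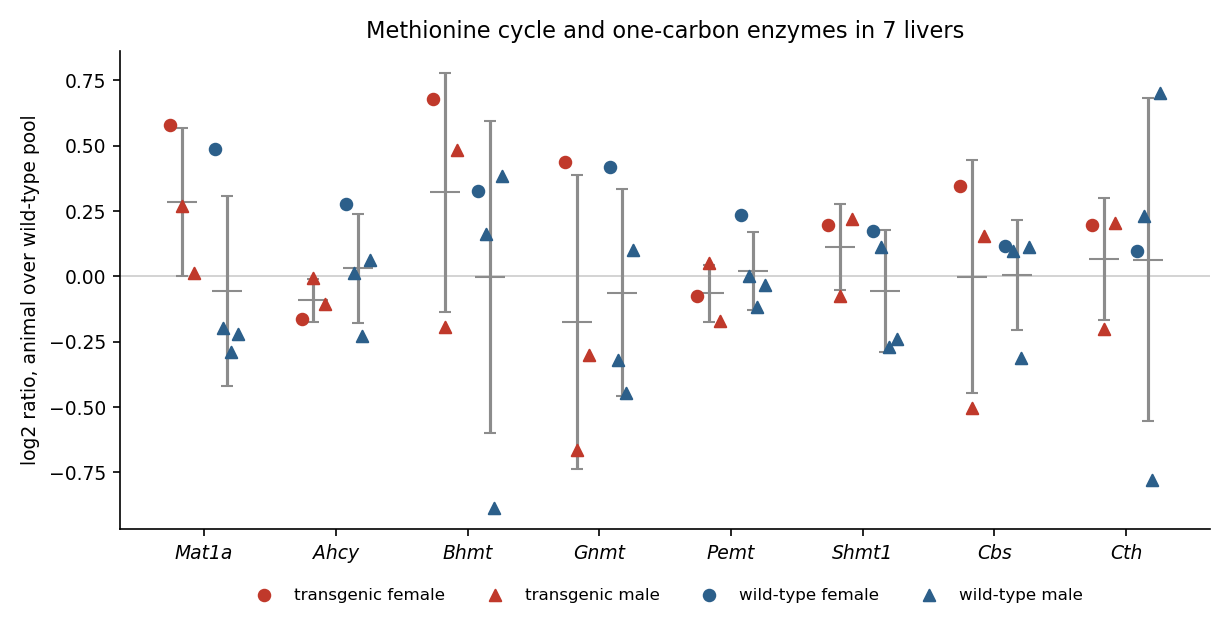
Log2 ratio of each animal to the wild-type pool (vertical axis) for the 8 measured enzymes, with transgenic animals in red left of wild-type animals in blue, circles for females and triangles for males. Grey bars are the mean and SD of 3 transgenic and 4 wild-type animals. Genotypes overlap in every gene, both females lie above all males in Mat1a and Gnmt, and 1 wild-type male lies at -0.88 in Bhmt and -0.78 in Cth.

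Mat1a, which makes S-adenosylmethionine in adult hepatocytes, had the largest difference of the 8 in size between genotypes. It read 0.58 in the transgenic female and 0.27 and 0.01 in the transgenic males, against 0.49 on the array labelled wild-type female, with -0.20, -0.29 and -0.22 in the wild-type males. Both females were the highest, the transgenic males came next and the 3 wild-type males lay together at the bottom, so the genotypes did not overlap in the males and overlapped over all 7 animals. Mat1a averaged 0.29 ± 0.28 in the transgenic animals (SD, n = 3), against -0.06 ± 0.36 in those labelled wild type (SD, n = 4). With sex in the model the difference was 0.29 ± 0.11 SE (1.22-fold, 95% interval 0.04 to 0.54, unadjusted p = 0.0279, adjusted p = 0.718 in limma). In the males alone it was 0.38 ± 0.12 SE (1.30-fold), with an adjusted p of 0.556 in limma where 0.0315% of all features were called. At an unadjusted p under 0.05 in the males, 1 of 8 members was higher (Mat1a) and 0 lower, beside 3.92% and 3.04% of all features. Transgenic males lay above all wild-type males in 11.2% of all features, so 1 of 8 members doing so is near the background. Without transgenic male 1 the difference over the remaining animals was 0.19.

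The groups stood in the same order by the median of liver genes with a female bias, females above transgenic males above wild-type males. Between the males, 6 of the 8 measured genes of this list were higher in transgenic animals and 2 lower. The median of these differences was 0.63, and they ran from -0.43 to 2.33. Of the 8, 2 passed at an adjusted p under 0.05 in limma, both higher in transgenic males, beside 0.0315% of all features. At an unadjusted p under 0.05 in limma 3 were higher and 1 lower, beside 3.92% and 3.04% of all features. Of the 10 listed female-biased genes, 8 were measured, and their median ratio was 1.80 in the transgenic female and -0.67 and -0.76 in the transgenic males, against 1.69 on the array labelled wild-type female, with -2.95 to -2.63 in the wild-type males. The gap between these array medians is not the median difference per gene, which was 0.63 between the males. Macrophage and Kupffer cell markers (10 of 11 measured) had medians of 0.48, 0.17 and 0.14 in the transgenic female and males, against 0.91 on the array labelled wild-type female, with -0.80 to -0.17 in the wild-type males. Hepatocyte markers (11 of 11) had medians between -0.22 and 0.00 in transgenic and between -0.06 and 0.08 in wild-type animals. Single hepatocyte markers differed between genotypes over all animals by -0.49 to 0.59, and 0 passed in limma. At an unadjusted p under 0.05 in limma 1 was higher and 3 lower, beside 3.81% and 3.1% of all features. The part of these lists in the Mat1a values was not tested. Outside the members, the 5 named genes whose ratios followed Mat1a most closely over the 7 arrays had Pearson correlations of 0.986 to 0.991. They were the olfactory receptor gene Olfr1414, Npdc1, the procollagen-processing enhancer Pcolce and the cytochrome P450 genes Cyp2b9 and Cyp2c38, of which Cyp2b9 is also in the female-biased list. Within the 5 males the same genes had correlations with Mat1a of 0.954 to 0.996, and since they are the top of 16462 named genes over few arrays they are named as a description.

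Gnmt, which uses S-adenosylmethionine to turn glycine into sarcosine and so drains an excess of the methyl donor, had the largest difference between the sexes. In females it read 0.44 (transgenic) and 0.42 (labelled wild type), against -0.66 and -0.30 in the transgenic males and -0.32, -0.45 and 0.10 in the wild-type males. The 2 females differed by 0.02 and lay above all 5 males, whose values spread over 0.28 (SD, n = 5). The means were 0.43 ± 0.02 (SD, n = 2) in females and -0.33 ± 0.28 (SD, n = 5) in males, and the modelled difference was 0.77 ± 0.18 SE (1.71-fold, 95% interval 0.35 to 1.19). It did not pass, with an adjusted p of 0.201 in limma, where 0.351% of all features were called. Between genotypes Gnmt differed by -0.18 ± 0.16 SE over all animals (adjusted p = 0.881 in limma) and by -0.26 ± 0.20 SE in the males, within the spread of the animals.

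Mat1a and Gnmt were the only members in which females and males did not overlap. Females lay wholly above males in 2 of 8 members, beside 6.04% of all features, and wholly below in 0, beside 6.83%. For Mat1a the means were 0.53 ± 0.06 (SD, n = 2) in females and -0.09 ± 0.23 (SD, n = 5) in males, a difference of 0.59 ± 0.12 SE (adjusted p = 0.136 in limma). Without the array labelled wild-type female the female-minus-male difference was 0.44 for Mat1a and 0.92 for Gnmt. The differences were on the positive side for all 8 measured members, from 0.12 (Cth) to 0.77 (Gnmt), with a median of 0.27 beside 0.01 over all features. The share of all features on the positive side was not counted. Leaving out 1 animal could turn the sign in Ahcy, Cth and Pemt. By limma 0 of 8 passed and 2 of 8 had an unadjusted p under 0.05, both higher in females, beside 3.66% of all features higher and 5.57% lower. The sexes were compared on 2 females, and male-biased liver genes (9 of 10 measured) had medians of -2.75 and -3.53 in them. In the males their medians were -0.36 and 0.12 (transgenic) and 0.29 to 0.43 (wild type). Between the males, 8 of the 9 were lower in transgenic animals and 1 higher, and 1 passed in limma, on the lower side, beside 0.0315% of all features. At an unadjusted p under 0.05 in limma 4 were lower and 0 higher, beside 3.04% and 3.92% of all features. The part of these genes in the members' values was not tested. The interaction of genotype and sex was past the threshold in 0 of 8 members by limma, with 0 of 8 at an unadjusted p under 0.05, beside 0.072% of all features called and 3.93% and 4.5% at an unadjusted p under 0.05 on the positive and the negative side.

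**Figure D2:**
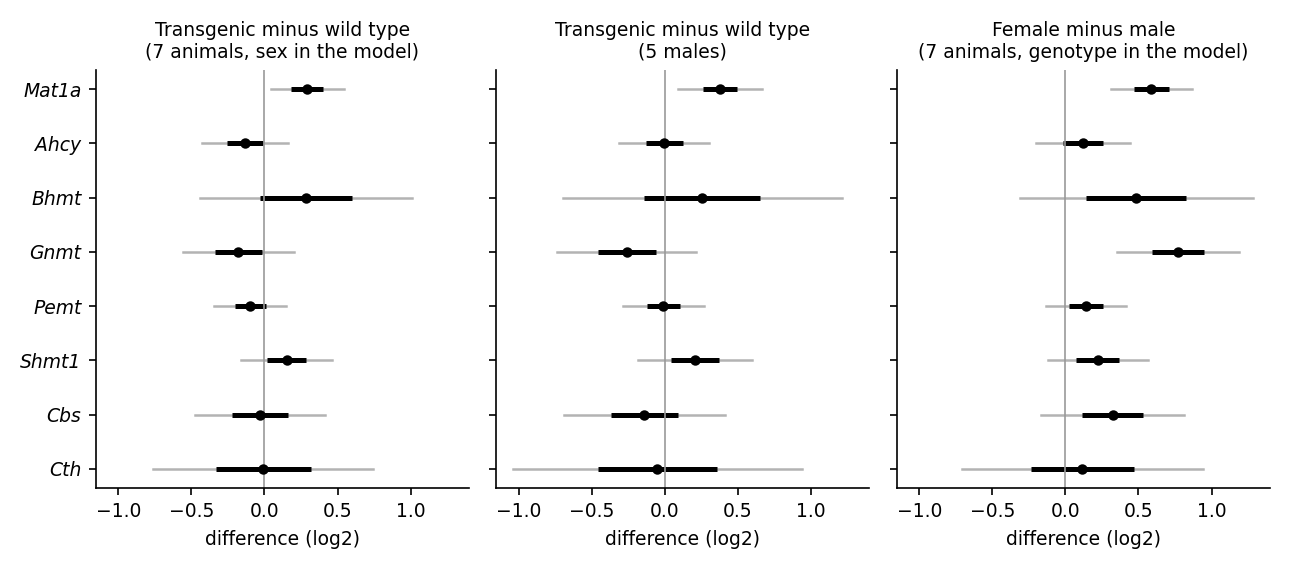
Modelled differences in log2 ratio (horizontal axes) for the 8 measured enzymes: transgenic minus wild type over 7 animals, the same in 5 males, and female minus male over 7 animals. Points are limma estimates, black bars 1 SE and grey lines 95% intervals. Mat1a has intervals above 0 in all 3 panels, Gnmt only in the panel of the sexes, and none passed after adjustment over all features.

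Among the enzymes that handle homocysteine, single males lay farther from the rest than the genotypes lay apart. Bhmt, the betaine-dependent remethylating enzyme, read 0.68 in the transgenic female and -0.19 and 0.48 in the transgenic males, against 0.33 on the array labelled wild-type female, with 0.16, -0.88 and 0.39 in the wild-type males. Its 2 probes differed by at most 0.09 on any array, so the low value of wild-type male 3 was read by both. The genotype difference was 0.28 ± 0.31 SE (95% interval -0.44 to 1.01, adjusted p = 0.913 in limma) over all animals, 0.26 ± 0.40 SE in the males and 0.03 without wild-type male 3.

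Cth, which releases cysteine from cystathionine, read 0.20 in the transgenic female and -0.20 and 0.21 in the transgenic males, against 0.10 on the array labelled wild-type female, with 0.23, -0.78 and 0.70 in the wild-type males. The lowest and the highest animal of all 7 were both wild-type males. The genotype difference was -0.01 ± 0.32 SE (95% interval -0.76 to 0.75, adjusted p = 0.998 in limma), and -0.05 ± 0.41 SE in the males, so these arrays leave room for a change of either sign in Cth. Among the 3 wild-type males the SD was 0.76 for Cth and 0.68 for Bhmt, beside a median of 0.15 over named genes, and larger than in 99.6% and 99.2% of them.

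Cbs, which joins homocysteine to serine and commits it to cysteine, shared the lowest pair of animals with Bhmt, Cth and Gnmt. It read 0.34 in the transgenic female and -0.50 and 0.16 in the transgenic males, against 0.12 on the array labelled wild-type female, with 0.10, -0.31 and 0.11 in the wild-type males. In these 4 genes the lowest values came from wild-type male 3 and transgenic male 1, which carry different genotypes. How many of all features share this lowest pair was not counted. The Cbs difference was -0.03 ± 0.19 SE (adjusted p = 0.995 in limma), and -0.14 ± 0.23 SE in the males. Wild-type male 3 was the lowest animal in 5 of the 8 members (Mat1a, Bhmt, Ahcy, Cth and Shmt1), where it was the lowest in 14.9% of named genes. Periportal hepatocyte markers (6 of 8 measured) had medians of -0.07, -0.23 and -0.08 in the transgenic female and males, against 0.20 on the array labelled wild-type female, with -0.08, -0.46 and 0.28 in wild-type males 2, 3 and 4. Pericentral markers (9 of 9) were at -0.17 in transgenic male 1 and 0.05 in wild-type male 3. Their part in the Bhmt, Cth and Cbs values was not tested.

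**Figure D3:**
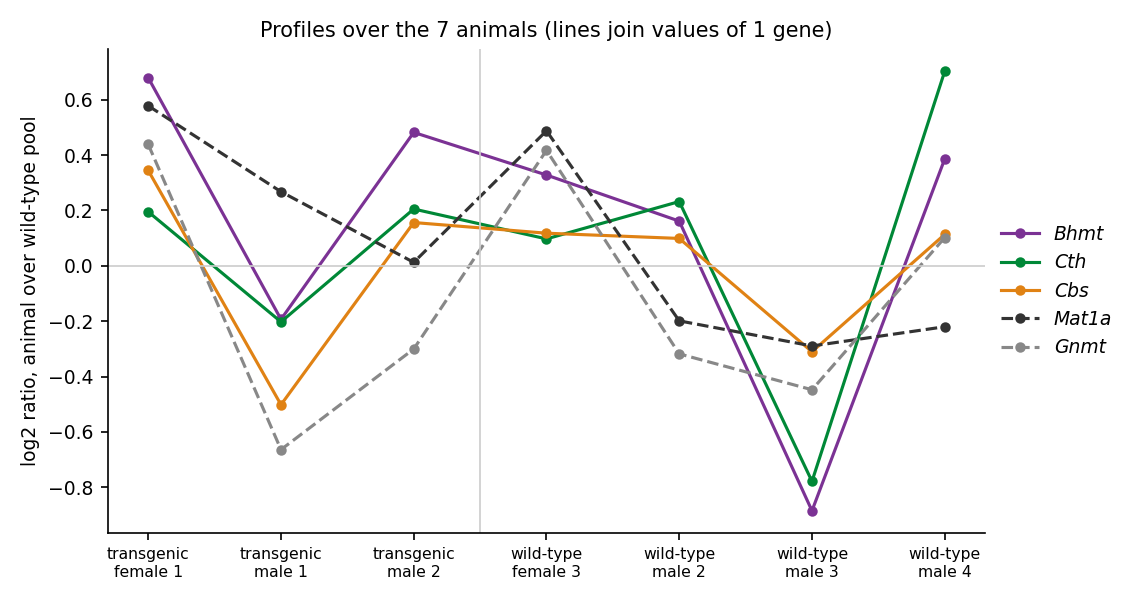
Log2 ratio to the wild-type pool (vertical axis) of Bhmt, Cth and Cbs (solid) and of Mat1a and Gnmt (dashed) in each of the 7 animals, transgenic left of wild type. Lines join the values of 1 gene. The solid lines dip together in transgenic male 1 and wild-type male 3, where Gnmt is also lowest, and the dashed lines peak in both females.

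Promoters from RefSeq on GRCm38.p6 were matched for 7 members, in 8 windows of 250 bases before and 50 from the annotated start on. The 7 included Mat2a, whose expression was not measured, and no window was matched for Mat1a or Cth. The windows of Bhmt, Cbs and Gnmt, which like Cth had the same lowest pair of animals, are shown 5′ to 3′ in the direction of the gene. They lie at chr13:93637709-93638008 (Bhmt), chr17:31637156-31637455 (Cbs) and chr17:46729116-46729415 (Gnmt), each on the minus strand. Capitals mark CCAAT and GGGCGG on either strand.
Bhmt: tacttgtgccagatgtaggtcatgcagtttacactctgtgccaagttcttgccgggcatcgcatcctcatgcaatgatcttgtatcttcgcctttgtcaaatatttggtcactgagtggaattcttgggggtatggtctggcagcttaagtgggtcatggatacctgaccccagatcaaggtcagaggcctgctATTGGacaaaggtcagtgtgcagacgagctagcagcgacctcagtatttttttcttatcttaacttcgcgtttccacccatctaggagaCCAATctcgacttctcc
Cbs: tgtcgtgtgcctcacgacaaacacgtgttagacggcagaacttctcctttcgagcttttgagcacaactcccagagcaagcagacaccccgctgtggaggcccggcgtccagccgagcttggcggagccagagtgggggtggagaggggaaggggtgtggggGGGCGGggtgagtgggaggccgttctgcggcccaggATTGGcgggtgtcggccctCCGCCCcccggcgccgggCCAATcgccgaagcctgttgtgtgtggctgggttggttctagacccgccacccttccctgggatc
Gnmt: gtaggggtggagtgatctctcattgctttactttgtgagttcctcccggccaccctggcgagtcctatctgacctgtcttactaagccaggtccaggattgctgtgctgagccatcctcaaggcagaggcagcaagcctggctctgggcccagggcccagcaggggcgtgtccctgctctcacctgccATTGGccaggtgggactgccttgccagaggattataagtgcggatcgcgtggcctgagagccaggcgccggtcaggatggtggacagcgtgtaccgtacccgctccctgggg

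The windows differ in base composition and in these motifs. Bhmt held 8 CpG dinucleotides and 48.0% G and C, Cbs 22 and 66.7%, and Gnmt 11 and 62.0%, beside medians of 7 and 52.7% over 32851 promoters. CCAAT, found in 37.4% of all promoters, occurred in Bhmt at -56 and 34, in Cbs at -52 and -15 and in Gnmt at -62, counted from the annotated start as base 1. It also occurred in Ahcy, Shmt1 and a window of Pemt, which had other lowest pairs of animals, and in Mat2a. So it does not set Bhmt, Cbs and Gnmt apart from the other members. GGGCGG, found in 35.7%, occurred in Cbs at -88 and -33 and not in the windows of Bhmt and Gnmt. The motifs TATAAA (13.6% of promoters), TGATGNAA (3.97%), TGACGTCA (1.79%) and TTCNNNGAA (8.3%), searched on both strands, had no match in these 3 windows, and no motif searched overlapped another there.

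Ahcy, Pemt and Shmt1 varied least among the 8 members. Ahcy, which hydrolyses S-adenosylhomocysteine, read -0.16 in the transgenic female and -0.0048 and -0.11 in the transgenic males, against 0.28 on the array labelled wild-type female, with 0.01, -0.23 and 0.06 in the wild-type males. Its 2 probes lay up to 0.24 apart, reading -0.28 and -0.04 in the transgenic female and -0.11 and 0.13 in wild-type male 2. On the array labelled wild-type female they read 0.35 and 0.21. The SD between animals was 0.08 in the transgenic (n = 3) and 0.21 in those labelled wild type (n = 4). The genotype difference was -0.13 ± 0.13 SE over all animals and -0.0047 ± 0.13 SE in the males, while the 2 females differed by -0.44.

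Pemt, which makes phosphatidylcholine in the liver by stepwise methylation of phosphatidylethanolamine, read -0.08 in the transgenic female and 0.05 and -0.17 in the transgenic males, against 0.23 on the array labelled wild-type female, with 0.0017, -0.12 and -0.03 in the wild-type males. Its difference of -0.10 ± 0.11 SE had a 95% interval of -0.35 to 0.15, and it was -0.0098 ± 0.12 SE in the males. Shmt1, the cytosolic serine hydroxymethyltransferase, read 0.20 in the transgenic female and -0.08 and 0.22 in the transgenic males, against 0.18 on the array labelled wild-type female, with 0.11, -0.27 and -0.24 in the wild-type males. Its difference was 0.15 ± 0.13 SE (95% interval -0.16 to 0.46), and 0.21 ± 0.16 SE in the males, with adjusted p of 0.874 and 0.960 in limma. Without transgenic male 2 it was 0.043 over the remaining animals, and without wild-type male 3 it was 0.098.

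Around the members, 79 of 87 other genes of one-carbon, methyl and sulfur metabolism were measured, and 0 passed in limma between transgenic and wild type (lowest adjusted p 0.508). Their differences were positive for 40 and negative for 39, with a median of 0.01 beside -0.01 over all features. At an unadjusted p under 0.05 there were 11 higher (13.9%, beside 3.81% of all features) and 5 lower (6.33%, beside 3.1%). In the males alone there were 6 higher (7.59%, beside 3.92%) and 3 lower (3.8%, beside 3.04%), and 0 passed. In 7 of the 79 (8.86%, beside 3.18%) the transgenic animals lay above every animal labelled wild type, and in 0 (beside 2.84%) below. The list was chosen with earlier results of these data known, so these shares describe the list alone, and they were not tested.

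Apip, an enzyme of the salvage route that returns methylthioadenosine from polyamine synthesis to methionine, had the smallest p of the 79. It read 0.25 in the transgenic female and 0.45 and 0.42 in the transgenic males, against -0.36 on the array labelled wild-type female, with 0.0053, 0.11 and -0.10 in the wild-type males. All 3 transgenic animals lay above all 4 animals labelled wild type, by a difference of 0.48 ± 0.09 SE (1.40-fold, adjusted p = 0.508 in limma), and by 0.43 ± 0.11 SE in the males. In the same list of polyamine and salvage genes (8 of 10 measured, 4 positive and 4 negative, median -0.01, 0 past) Odc1, the decarboxylase that starts polyamine synthesis, differed by -0.28 ± 0.12 SE over all animals (-0.17 and -0.39 by its 2 probes) and by -0.14 ± 0.10 SE in the males.

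The enzymes of cysteine, taurine and glutathione metabolism (12 of 12 measured, 7 positive and 5 negative, median 0.07, 0 past) held the largest negative difference. Csad, the decarboxylase of taurine synthesis, read -2.31 in the transgenic female and -1.09 and -0.25 in the transgenic males, against -0.95 on the array labelled wild-type female, with 0.50, -0.07 and 0.28 in the wild-type males. Transgenic males lay below all wild-type males, and the groups overlapped over all 7 animals. In the fit the difference was -1.04 ± 0.23 SE (2.06-fold lower, adjusted p = 0.576 in limma). It was -0.91 ± 0.28 SE in the males alone. Csad also differed by -1.40 ± 0.25 SE between females and males (adjusted p = 0.0976 in limma). Ggct, an enzyme of the gamma-glutamyl cycle of glutathione, differed by 0.51 ± 0.15 SE between genotypes and by 0.48 ± 0.19 SE in the males.

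Among methyltransferases that consume S-adenosylmethionine (13 of 14 measured, 8 positive and 5 negative, median 0.07, 0 past) Nnmt had the largest difference. Nnmt, which methylates nicotinamide, read 2.24 in the transgenic female and -0.07 and 0.40 in the transgenic males, against 1.09 on the array labelled wild-type female, with -1.19, -1.55 and -0.13 in the wild-type males. Both females lay above all males, and both transgenic males above all wild-type males. The genotype difference was 1.13 ± 0.32 SE (2.19-fold, adjusted p = 0.675 in limma), and 1.13 ± 0.41 SE in the males alone. The difference between females and males was 2.06 ± 0.35 SE (4.17-fold, adjusted p = 0.0857 in limma), the smallest adjusted p between the sexes among the members and the 79 other genes.

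Gamt, the last enzyme of creatine synthesis and a large user of methyl groups, read 0.29 in the transgenic female and 0.43 and 0.37 in the transgenic males, against 0.11 on the array labelled wild-type female, with 0.13, -0.12 and -0.10 in the wild-type males. The groups did not overlap, and the difference was 0.36 ± 0.11 SE (1.28-fold, adjusted p = 0.677 in limma), and 0.43 ± 0.12 SE in the males.

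The folate enzymes (12 of 14 measured) were on the positive side in 10 cases, with a median of 0.07 and 0 past. Ftcd, which links histidine breakdown to the folate pool, read 0.39 in the transgenic female and 0.48 and 0.14 in the transgenic males, against -0.07 on the array labelled wild-type female, with 0.03, 0.13 and -0.21 in the wild-type males. The groups touched at 0.14 and 0.13 without overlapping, and the difference was 0.36 ± 0.13 SE, and 0.32 ± 0.16 SE in the males. Atic, which spends formyl folate in purine synthesis, differed by 0.43 ± 0.15 SE, and by 0.42 ± 0.18 SE in the males, both genes at an adjusted p of 0.718 in limma over all animals. Without transgenic male 1, which read 0.68, the Atic difference was 0.27. Mthfs, which returns formyl folate to the active pool, had the smallest p of this list between females and males (0.26 ± 0.13 SE, adjusted p = 0.6 in limma).

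Folate uptake and retention (7 of 7 measured, 3 positive and 4 negative, median -0.02, 0 past) was led by Folr2, a folate receptor that macrophages carry. It read 0.68 in the transgenic female and 0.91 and 0.55 in the transgenic males, against 0.85 on the array labelled wild-type female, with -0.575, -0.86 and 0.05 in the wild-type males. Transgenic males lay above all wild-type males, and the 2 females differed by -0.17. The difference was 0.79 ± 0.31 SE (adjusted p = 0.72 in limma) over all animals and 1.19 ± 0.27 SE in the males (adjusted p = 0.363 in limma). Macrophage and Kupffer cell markers differed between the males by a median of 0.90, with 8 of 10 positive and 7 of 10 at an unadjusted p under 0.05 on the higher side (beside 3.92% of all features), and their part in the Folr2 value was not tested. Ggh, which trims stored folate for export, differed by 0.16 ± 0.20 SE, and by 0.35 ± 0.21 SE in the males.

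Of the genes that feed one-carbon units from glycine, serine and choline (12 of 12 measured, 5 positive and 7 negative, median -0.04, 0 past), Sardh, which oxidises the sarcosine that Gnmt makes, read 0.73 in the transgenic female and 0.31 and -0.01 in the transgenic males, against -0.01 on the array labelled wild-type female, with 0.05, -0.17 and -0.10 in the wild-type males. The transgenic female was the highest, and transgenic male 2 lay among the wild-type males. Sardh differed by 0.38 ± 0.14 SE, and Gcsh, the carrier protein of glycine cleavage, by -0.25 ± 0.10 SE, with adjusted p of 0.718 and 0.72 in limma. In the males alone they differed by 0.23 ± 0.14 SE and -0.28 ± 0.12 SE. The 3 probes of Gcsh disagreed, with differences of -0.029, -0.38 and -0.33. Aldh7a1, which can oxidise betaine aldehyde, had the smallest p of this list between the sexes (-0.27 ± 0.10 SE, adjusted p = 0.452 in limma).

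The other genes of S-adenosylmethionine supply (7 of 8 measured, 1 positive and 6 negative, median -0.05, 0 past) ran from -0.13 to 0.06, and Ahcyl1 and Ahcyl2, relatives of Ahcy, differed by -0.13 ± 0.10 SE and 0.06 ± 0.10 SE, and by -0.17 ± 0.12 SE and -0.051 ± 0.10 SE in the males. The list of the choline route to phosphatidylcholine, which runs beside Pemt, also held genes of the ethanolamine route to phosphatidylethanolamine. Of its 10 genes 8 were measured, 6 of them on the negative side, and 0 passed. Pcyt2 (-0.14) and Selenoi (-0.16), both of the ethanolamine route, were among those 6. The median of the list, -0.15, was the farthest from 0 of the 8 lists. Chka, the kinase that starts the choline route, differed by -0.33 ± 0.18 SE, and by -0.21 ± 0.21 SE in the males. Cept1, a transferase of the last step, differed by -0.18 ± 0.10 SE, and by -0.27 ± 0.11 SE in the males. Between the sexes Cept1 averaged 0.31 in the females and -0.19 in the males, without overlap, a difference of 0.52 ± 0.11 SE (adjusted p = 0.172 in limma).

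**Figure D4:**
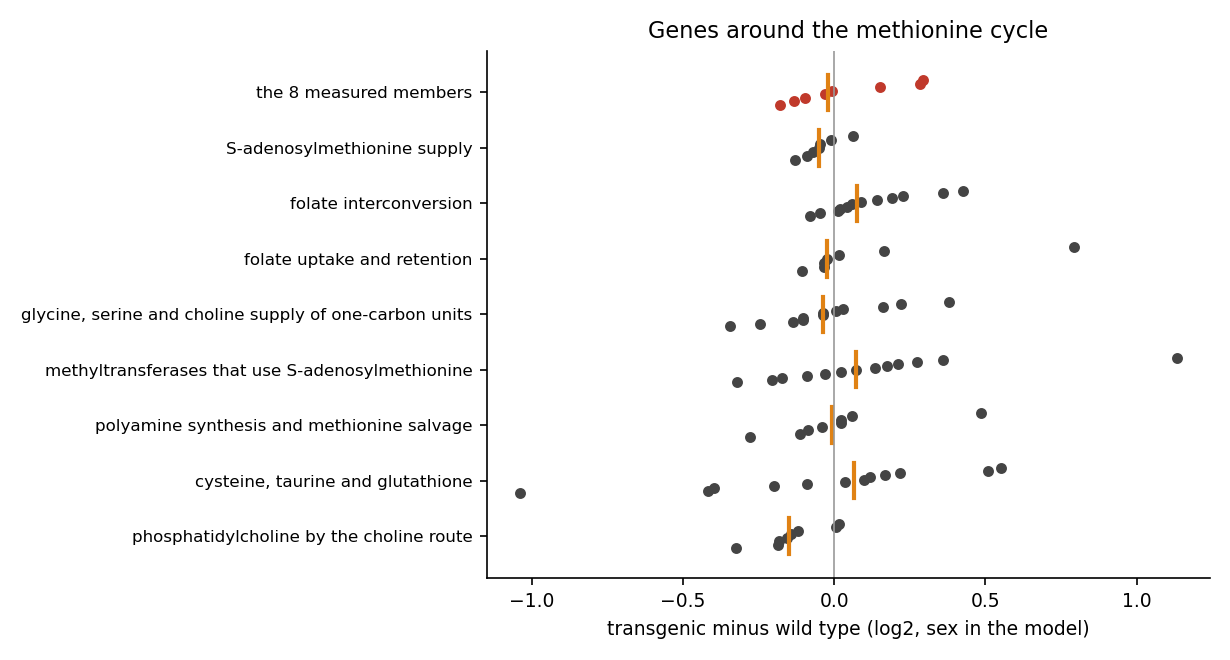
Transgenic minus wild type in log2 ratio with sex in the model (horizontal axis) for the 8 measured members (red) and the 79 other measured genes in 8 lists (grey). Each point is 1 gene, spread vertically only for legibility, and orange bars are list medians. Medians run from -0.15 to 0.07, and the points farthest out are Csad at -1.04 and Nnmt at 1.13.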

How the data were processed

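Total liver RNA was labelled and hybridised to 2-colour arrays, with the pool in Cy3 and the animal in Cy5, per the labels' protocols, and dye swaps were used. The authors deposited 1 log10 ratio per probe and animal (23574 probes, values from -2 to 2). Background correction, normalization and the handling of swapped arrays are not given in the sources used here, so signal over background is unknown, and precision is limited by how few arrays there are. The log base and direction were inferred from the values, and how the arrays were centred stays unknown (medians -0.0042 to 0.0093 on the log10 scale).

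Ratios were multiplied by 3.32 to give log2. GEO's platform annotation named 17824 probes with 1 gene, 50 with several and 5700 with none. Gene numbers changed 0 symbols and RefSeq accessions 15 (GRCm38.p6). Probes of a gene were averaged, giving 22212 features. Differences were fitted with limma 3.58.1 (lmFit, eBayes; R 4.3.3) with genotype and sex, in the males alone with genotype, and with an interaction in a model of its own, with Benjamini-Hochberg adjustment over all features and a threshold of 0.05. Permutation tests used scipy 1.17.1. Named genes were all members and, from each list, the 2 genes with the smallest p between genotypes and the 1 with the smallest between sexes, with the 5 genes most like Mat1a, and Zfp90 and Kdm5d as label checks. The members and lists were chosen with earlier results of these data known. Alternatives were median centring, quantile normalization, 1 covariate, males alone, a robust variance model, single probes, named genes alone, features with the larger ratios (50%), and leaving out each animal.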

Additional observations from a re-analysis of the deposited data

Results flagged for a closer look

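Of 26 genes examined, 2 had 1 wild-type array far from the other 3 by Dixon's test. Chance gives this in about 1 in 20 groups of like samples, and the wild-type group held 1 female and 3 males. Mat1a read 0.49 on the array labelled wild-type female, above the wild-type males, and the transgenic female (0.58) also lay above all males. Cbs read -0.31 in wild-type male 3, below the other wild-type animals. In a further 2 genes, transgenic and wild-type males did not overlap and the females differed in the opposite direction. Other genes among the 26 also had opposite signs in the sexes, with males that overlapped. Folr2 differed by -0.17 between the 2 females (transgenic minus labelled wild type), against 1.19 between transgenic and wild-type males (interaction -1.36, adjusted p = 0.549 in limma). Cept1 differed by 0.028 between those females and by -0.27 between the males (interaction 0.30, adjusted p = 0.733 in limma). Each sex comparison of this kind rests on 1 female per genotype.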

How the results depend on the processing

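No alternative brought a member past the threshold in any contrast, or one of the 79 other genes between genotypes, the only contrast in which the alternatives were run for them. Of these, 6 members and 44 other genes were among the features with the larger ratios. The lowest adjusted p for a member over the alternatives was 0.307 between genotypes, 0.106 between sexes, 0.466 for the interaction and 0.352 in the males, and 0.181 for another gene between genotypes. Mat1a and Gnmt kept their direction in each alternative run, with Mat1a between 0.19 and 0.38 and Gnmt between -0.26 and -0.04 across genotypes when 1 animal was left out. The signs of small differences did not hold. With each array centred on its median, Cth changed to 0.0011 between genotypes, and Ahcy and Pemt to 0.014 and 0.0089 in the males. Without sex in the model Cth was at 0.0026, in the males alone Ahcyl2 was at -0.051, and with quantile normalization the Bhmt interaction was at -0.020. Leaving out 1 animal gave, between genotypes, -0.19 to 0.20 for Cbs, -0.28 to 0.22 for Cth, -0.051 to 0.12 for Ahcyl2 and -0.030 to 0.35 for Ggh. Between sexes it gave -0.11 to 0.33 for Ahcy, -0.088 to 0.28 for Cth and -0.017 to 0.28 for Pemt, and for the interaction -0.24 to 0.48 for Bhmt and -0.18 to 0.56 for Cth. In the males it gave -0.13 to 0.59 for Bhmt, -0.094 to 0.053 for Ahcy, -0.47 to 0.19 for Cbs, -0.47 to 0.27 for Cth and -0.12 to 0.10 for Pemt. Without a turn of sign, it gave between genotypes 0.031 to 0.50 for Bhmt, -0.21 to -0.0047 for Ahcy, -0.20 to -0.0098 for Pemt, -0.17 to -0.067 for Ahcyl1 and -0.44 to -0.21 for Chka. The cause of these shifts was not tested. The interaction could not be fitted without either female. No paired analysis was possible because no pair of groups shares more than 1 replicate number.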
